A study of Homo sapiens with 36 samples.

Results

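The AP-1 and EGR immediate early factors described here are 10 genes, FOS, FOSB, JUN, JUNB, JUND, ATF3, BATF, EGR1, EGR2 and EGR3, taken by symbol from the 58302 Ensembl gene IDs in the count tables. All 10 were matched in GENCODE v44. They were followed in 36 RNA sequencing libraries of JEKO, MINO and UPN-1, which are 3 established lines of mantle cell lymphoma, a cancer of mature B cells. Cells of each line were given the vehicle DMSO or GS716054, which the labels call a KDM5 inhibitor, and were collected after 24 h or 72 h. KDM5 enzymes are histone demethylases that act on lysine 4 of histone H3, a residue whose methylation marks active promoters. Each of the 12 groups, a line with a treatment and a time, held 3 libraries that the labels number as biological replicates. The labels give no other agent, no transgene and no dose, and every group was grown in the same serum-containing medium.

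AP-1 is a family of dimers of leucine zipper proteins. FOS, FOSB and the related ATF3 and BATF pair with the JUN proteins, and the dimers bind the TGANTCA element or its longer relative TGACGTCA. EGR1, EGR2 and EGR3 are zinc finger proteins that bind GC-rich elements. Most of these genes are switched on within minutes by growth factor, antigen receptor or stress signals, largely through MAP kinases and the serum response factor, and are then switched off by feedback. In B cells, EGR2 and EGR3 follow antigen receptor signalling, BATF works with IRF4 in activated cells, and ATF3 also responds to amino acid and unfolded protein stress through ATF4.

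The libraries held 8784815 to 14970876 gene reads (median 11926903), and 3 reads, the limit that a count of 0 allows for counting error alone, correspond to 0.2004 to 0.3415 CPM, the counts scaled to a common library size. B cell markers were expressed in all lines, with summed levels of 1326 to 5199.8 CPM over 6 genes, and mantle cell lymphoma markers summed to 1309 to 3532 CPM over 3 genes. CD3D and CD2 were at 0 in all MINO libraries although the 5 T cell markers summed to 101 to 499 CPM there, nearly all of it CD7. The 2 MINO libraries numbered replicate 2 at 72 h stood apart from the others of their groups: CD7 was 499 CPM under DMSO and 374 CPM under GS716054, against 98.9 to 128 CPM in the other 4 libraries of that time. Results for MINO at 72 h are therefore given with and without replicate 2 of DMSO where it changes them.

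The promoters are shown first, for the 4 genes on which most of the results turn. RefSeq start sites gave 12 windows of 300 bases for 9 of the 10 genes (GRCh38.p14), and EGR3 was named only. The 250 bases before a start site of EGR1 hold the serum response (CArG) element at 2 places, the third window of EGR2 holds it at 1 place, and the window of JUND holds TGACGTCA, in each case shown in capitals. The first of the 2 ATF3 windows is shown because ATF3 was the gene that fell. It held none of the motifs searched, and neither did the other.
EGR1, chr5:138465229-138465478, plus strand: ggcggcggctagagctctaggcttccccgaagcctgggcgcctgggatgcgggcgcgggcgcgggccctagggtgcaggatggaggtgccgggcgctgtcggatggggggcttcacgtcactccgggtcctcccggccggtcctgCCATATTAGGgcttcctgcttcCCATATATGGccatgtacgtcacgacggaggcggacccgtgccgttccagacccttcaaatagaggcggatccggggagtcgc
EGR2, chr10:62816367-62816616, minus strand: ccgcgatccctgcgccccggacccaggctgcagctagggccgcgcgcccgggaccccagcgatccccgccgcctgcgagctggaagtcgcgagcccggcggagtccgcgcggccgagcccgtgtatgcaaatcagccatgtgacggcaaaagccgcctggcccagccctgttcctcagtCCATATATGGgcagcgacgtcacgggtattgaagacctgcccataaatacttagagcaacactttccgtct
JUND, chr19:18281623-18281872, minus strand: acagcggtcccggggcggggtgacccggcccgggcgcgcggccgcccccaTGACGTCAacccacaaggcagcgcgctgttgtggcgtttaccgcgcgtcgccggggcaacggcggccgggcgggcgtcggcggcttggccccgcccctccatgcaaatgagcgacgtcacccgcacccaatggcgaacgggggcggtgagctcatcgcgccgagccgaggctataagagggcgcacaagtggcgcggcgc
ATF3, chr1:212565157-212565406, plus strand: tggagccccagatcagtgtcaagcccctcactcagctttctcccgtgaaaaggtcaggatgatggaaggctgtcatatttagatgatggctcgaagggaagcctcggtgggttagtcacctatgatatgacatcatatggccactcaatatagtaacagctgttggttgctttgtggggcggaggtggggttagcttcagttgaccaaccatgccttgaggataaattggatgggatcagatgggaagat

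Counted from the start site, the elements began at bases -105 and -83 in EGR1, -71 in EGR2 and -200 in JUND. Both strands were searched. Of 35116 promoter windows of 300 bases, 1.29% held the CArG element, 7.71% TGANTCA, 1.85% TGACGTCA and 0.795% the EGR element GCGTGGGCG. No window of the 9 genes held TGANTCA or GCGTGGGCG. A match is a description of the letters and not a measured binding site.

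In the genome (GRCh38, GENCODE v44), FOS lies on chromosome 14 at 75278826-75282230 and BATF on the same chromosome at 75522455-75546993. FOSB (45467995-45475179), JUNB (12791486-12793315) and JUND (18279694-18281622) lie on chromosome 19. JUN (58776845-58784048) and ATF3 (212565334-212620777) are on chromosome 1. EGR1 is at 138465479-138469303 on chromosome 5, EGR2 at 62811996-62819167 on chromosome 10 and EGR3 at 22687659-22693480 on chromosome 8. JUNB and JUND have 1 exon block each. Of the exonic bases of JUNB, 14.2% overlap exons of HOOK2 on the opposite strand, and for EGR3 3.26% overlap ENSG00000253125. Whether the counting used strand was not given in the sources used here, so JUNB and EGR3 counts may be affected by those neighbours.

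JUNB and JUND were the most abundant of these RNAs in all lines, with BATF close to JUND in JEKO and next in MINO, and FOS and FOSB were close to the limit of detection. Per kilobase of exon, vehicle cells at 24 h held JUNB at 50.5 ± 5.46 CPM in JEKO, with 46.1 ± 5.27 for MINO and 41.9 ± 3.99 for UPN-1 (mean ± SD, n = 3 libraries, as for all such values). JUND was at 26.3 ± 3.79 CPM per kb in JEKO, with 68.2 ± 13.5 for MINO and 45.3 ± 0.166 for UPN-1. BATF was at 21.6 ± 4.11 CPM per kb in JEKO, with 26.6 ± 5.55 for MINO and 6.3 ± 1.13 for UPN-1.

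The order of JUNB and JUND differed by line: JUNB was the higher in JEKO, JUND was the higher in MINO, and in UPN-1 their levels lay within their spread. In JEKO, JUND and BATF also lay within their spread. EGR1 was at 6.21 ± 1.74 CPM per kb in JEKO, with 4.37 ± 1.56 for MINO and 10.5 ± 0.851 for UPN-1. EGR1 followed BATF in JEKO and stood above it in UPN-1. In MINO, EGR1, JUN (5.49 ± 1.91), EGR2 (6.96 ± 2.92) and EGR3 (6.8 ± 2.42) could not be ordered beyond their spread. JUN was at 1.05 ± 0.164 CPM per kb in JEKO and 1.99 ± 0.364 in UPN-1. In JEKO and UPN-1, EGR2, EGR3 and ATF3 stood between 0.673 and 1.39 CPM per kb. FOS ranged from 0.205 to 0.476 and FOSB from 0.0366 to 0.177 CPM per kb over the lines.

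**Figure D1:**
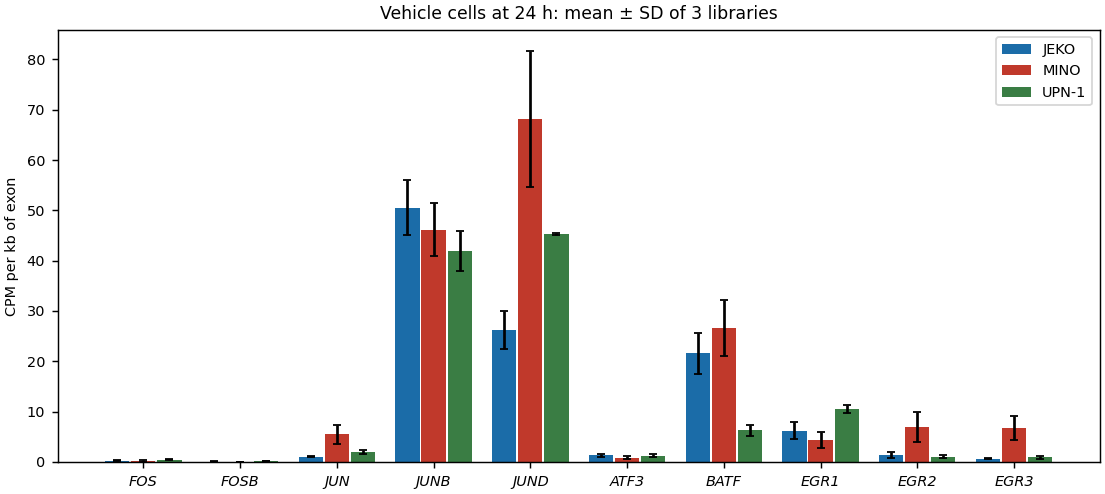
Level of each gene in vehicle cells at 24 h, in CPM per kilobase of exon on a linear axis; bars are means and error bars SD of 3 libraries, coloured by line. JUNB is at a like height in the 3 lines, while JUND, JUN, EGR2 and EGR3 are highest in MINO and BATF is lowest in UPN-1.

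EGR3, EGR2, JUN, JUND and BATF each differed between at least 2 of the 3 pairs of lines, and EGR1 and FOSB between UPN-1 and MINO. In vehicle cells at 24 h, EGR3 was at 20.2, 40 and 42.4 CPM in MINO, against 2.62 to 4.15 CPM in JEKO and 2.71 to 6.37 CPM in UPN-1. EGR2 was at 20.8, 18.4 and 38.2 CPM in MINO, against 2.7 to 6.39 CPM in JEKO and 2.71 to 4.82 CPM in UPN-1. No MINO library overlapped a library of another line for these genes, which encode the EGR factors induced by antigen receptor signals. JUN, the founding JUN protein, was at 13.2, 27 and 19.5 CPM in MINO, 3.32 to 4.47 in JEKO and 6.27 to 8.72 in UPN-1.

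MINO was higher than JEKO by log2 3.34 (SE 0.361) for EGR3, 2.33 (SE 0.34) for EGR2, 2.39 (SE 0.336) for JUN and 1.37 (SE 0.167) for JUND, with adjusted p of 3.94e-09, 9.68e-07, 5.27e-07 and 3.61e-08 by edgeR's quasi-likelihood test. That made 4 of 10 members called, all higher in MINO, where 48% of 17980 genes were called. Against JEKO, UPN-1 was higher for JUND (log2 0.78, SE 0.165, edgeR adjusted p = 0.000232) and JUN (log2 0.93, SE 0.342, edgeR adjusted p = 0.0265) and lower for BATF (log2 -1.78, SE 0.284, edgeR adjusted p = 4.75e-06), against 44.9% of all genes called. The JUN call was lost without JEKO replicate 2 (adjusted p = 0.0721) or 3 (0.0883) or UPN-1 replicate 3 (0.119).

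Between UPN-1 and MINO, 7 of 10 members were called, against 44.4% of all genes. In UPN-1, EGR3 was lower by log2 -2.92 (SE 0.353), EGR2 by -2.81 (SE 0.354), BATF by -2.09 (SE 0.285), JUN by -1.46 (SE 0.319) and JUND by -0.59 (SE 0.164). UPN-1 was higher for EGR1, by log2 1.28 (SE 0.398, edgeR adjusted p = 0.00915), and for FOSB, by 2.30 (SE 0.8, edgeR adjusted p = 0.0194). Without MINO replicate 3, which had no FOSB read, the calls of FOSB (adjusted p = 0.108), JUND (0.0548) and EGR1 (0.0532) were lost, and FOSB was also lost without UPN-1 replicate 3 (0.0798). JUNB, FOS and ATF3 passed the test in none of the 3 line comparisons.

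**Figure D2:**
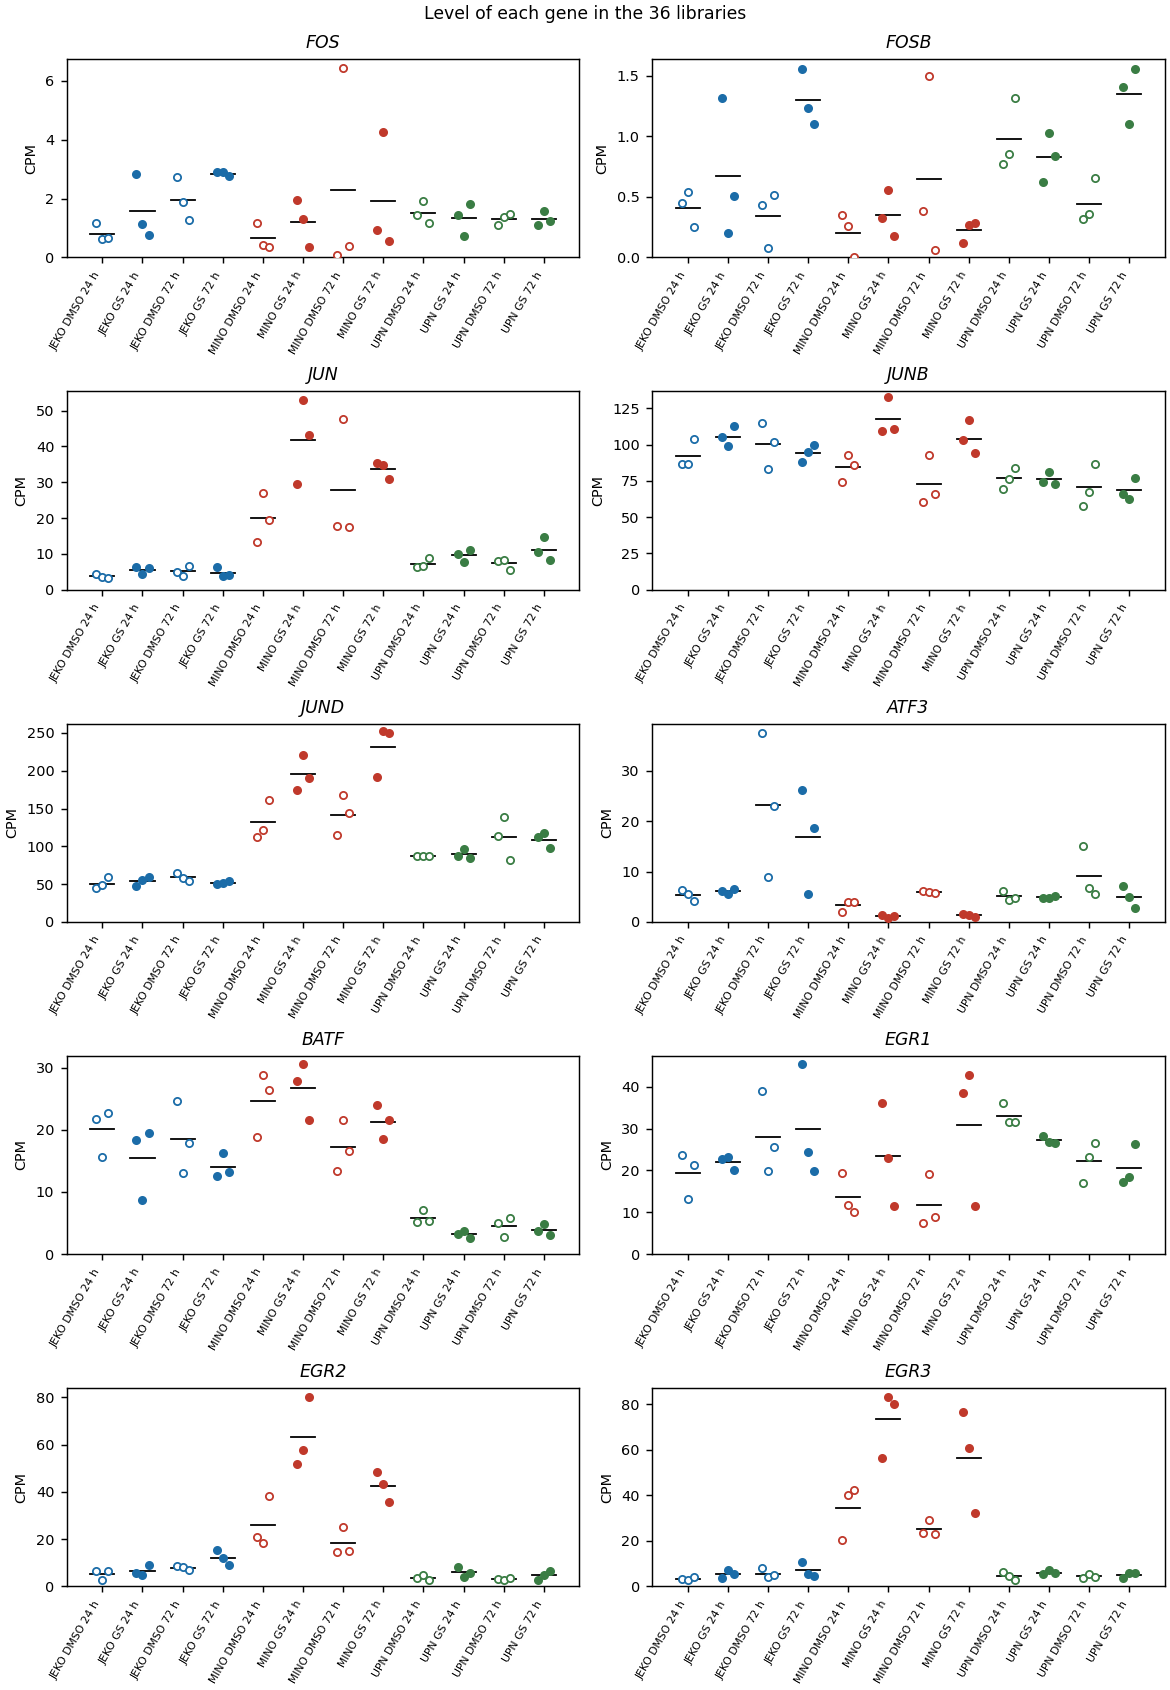
CPM of each of the 10 genes in all 36 libraries, 1 panel per gene on a linear axis from 0; open points are DMSO, filled points GS716054 (GS on the axis), colours are lines (UPN is UPN-1) and black bars are group means. EGR2 and EGR3 are highest in MINO and higher again under GS716054 there, ATF3 is high in JEKO at 72 h and low in MINO under GS716054, and JUNB spans 57.7 to 133 CPM over all libraries.

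GS716054 was followed by higher EGR2 and JUND and lower ATF3 in MINO, and by no member past the threshold in JEKO or UPN-1 in the model without replicate pairs. In MINO at 24 h, 2 of 9 tested members were called, 1 in each direction, against 2.39% of 15028 genes. At 72 h, 3 of 9 were called, 2 higher and 1 lower, against 5.56%. FOSB did not pass the filter on low counts in MINO. The median log2 change of the 9 members was 0.75 at 24 h and 0.50 at 72 h, beside 0.01 and -0.03 over all genes.

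Same-numbered DMSO and GS716054 libraries of MINO deviated together from their group means at each time (Pearson r of 0.102 to 0.207 at 24 h and 0.221 to 0.483 at 72 h). Libraries of different number reached at most 0.0231 at 24 h but 0.254 at 72 h, so at 72 h the pairs were not all distinct. With a term for each same-numbered pair, 6 of 9 members were called at 24 h (5 higher, 1 lower, 15.8% of all genes) and 6 of 9 at 72 h (5 higher, 1 lower, 20.2% of all genes). This paired model was added after the data were seen. DESeq2 without pairs called 3 of 9 members at 24 h (ATF3, EGR2 and EGR3) and 4 of 9 at 72 h (those and JUND). Over all genes DESeq2 also called more than edgeR without pairs at both times, so its added members came with a larger background. Fewer cells of a type and less RNA per cell cannot be told apart in such bulk libraries. B cell markers moved in the same comparisons: MS4A1, CD79B and CD22 were called higher in MINO at 24 h and MS4A1 and CD79A at 72 h, and the 6 markers summed to 2714 to 3306 CPM under DMSO and 4891 to 5199.8 CPM under GS716054 at 24 h. At 72 h those sums were 2583 to 3163 and 4276 to 5099.5 CPM. No marker of the myeloid, T cell or fibroblast lists passed in the main fit, though their sums differed. The 5 myeloid markers, with FCGR3A at 0, summed to 1.54 to 3.06 CPM under DMSO and 5.65 to 8.56 CPM under GS716054 at 24 h, and to 0.538 to 1.24 and 1.77 to 4.17 CPM at 72 h. The 5 T cell markers, nearly all CD7, summed to 119 to 159 and 169.9 to 205 CPM at 24 h and overlapped at 72 h. The 4 fibroblast markers, 3 of them at 0 throughout, overlapped at 24 h and summed to 0.588 to 0.999 and 1.8 to 4 CPM at 72 h. With pairs, LYZ and ITGAM (both myeloid) were called higher at both times, CD7 at 24 h and COL1A1 at 72 h. Markers also moved outside MINO. In JEKO the mantle cell lymphoma markers summed to 2627 to 2785 CPM under DMSO and 1461 to 1826 CPM under GS716054 at 24 h. The JEKO sums at 72 h were 2292 to 2936 and 1309 to 2011 CPM. UPN-1 had 2485 to 2603 and 2039 to 2246 CPM at 24 h, and 2141 to 2873 and 1539 to 2046 CPM at 72 h. In MINO these sums overlapped at both times. The part of these shifts in the results was not tested.

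ATF3, a stress-induced partner of JUN that often acts as a repressor, fell in MINO at both times. At 24 h it was at 1.88, 3.93 and 4.05 CPM under DMSO and at 1.41, 0.834 and 1.17 CPM under GS716054. The 72 h values were 6.07, 5.89 and 5.75 CPM under DMSO and at 1.65, 1.36 and 0.947 CPM under GS716054. All treated libraries lay below all DMSO libraries, and the gap was widest at 72 h. By edgeR the change at 24 h was log2 -1.57 (SE 0.357, adjusted p = 0.0385), and at 72 h it was -2.18 (SE 0.346, adjusted p = 0.00394). The 72 h call held without each of the 6 libraries in turn (adjusted p 0.00477 to 0.0207), whereas the 24 h call was lost without any library but DMSO replicate 1 (0.0864 to 0.21). Treated ATF3 counts were low, at 9 to 15 reads per library.

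EGR2, an EGR factor of activated lymphocytes, rose in MINO at both times. At 24 h it was at 20.8, 18.4 and 38.2 CPM under DMSO and at 52, 57.9 and 80.1 CPM under GS716054. By 72 h EGR2 was at 14.7, 25 and 15 CPM under DMSO and at 48.6, 43.4 and 35.7 CPM under GS716054. The groups did not overlap at either time, and replicate 3 was the highest library of each group at 24 h. By edgeR the increase at 24 h was log2 1.27 (SE 0.285, adjusted p = 0.0381), and at 72 h it was 1.22 (SE 0.289, adjusted p = 0.0277). The 24 h call held without DMSO replicate 3 (0.0336) and was lost without any other library (0.0724 to 0.167). The 72 h call was lost without DMSO replicate 1 (0.108), DMSO replicate 3 (0.106) or GS716054 replicate 1 (0.0714). With only the 6 libraries compared, EGR2 did not pass at 72 h (edgeR adjusted p = 0.0809) and passed at 24 h (0.00398).

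EGR3 followed EGR2 closely and stood at the threshold. At 24 h it was at 20.2, 40 and 42.4 CPM under DMSO and at 56.5, 83 and 80.2 CPM under GS716054. At 72 h it was at 23.4, 29.1 and 23 CPM under DMSO and at 76.6, 60.9 and 32.1 CPM under GS716054. Every treated library again lay above every DMSO library of its time. By edgeR the difference at 24 h was log2 1.06 (SE 0.312, adjusted p = 0.0925), and at 72 h it was 1.16 (SE 0.315), with an adjusted p that rounds to 0.05 and lies just outside. With pairs they were 1.11 (SE 0.183, edgeR adjusted p = 0.00146) and 1.08 (SE 0.186, edgeR adjusted p = 0.00141). DESeq2, which has no pairs here, called EGR3 at both times (adjusted p = 0.0239 and 0.00808). In edgeR without pairs, EGR3 at 72 h passed when DMSO replicate 2 (0.0477) or GS716054 replicate 3 (0.0194) was left out.

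EGR1, the EGR factor most broadly induced by mitogens, varied far more between replicates. At 24 h it was at 19.3, 11.7 and 10.1 CPM under DMSO and at 36, 23 and 11.6 CPM under GS716054. EGR1 at 72 h was at 7.53, 19.1 and 8.88 CPM under DMSO and at 38.5, 42.7 and 11.6 CPM under GS716054. The groups overlapped at both times, but within each pair of the same number the treated library was the higher, by ratios of 1.15 to 1.96 at 24 h and 1.3 to 5.11 at 72 h. In the main fit neither difference passed (log2 0.75, SE 0.51, edgeR adjusted p = 0.476 and log2 1.40, SE 0.513, edgeR adjusted p = 0.129), whereas without the low-count filter both did (0.0446 and 3.45e-06). With pairs the 72 h increase passed (log2 1.30, SE 0.272, edgeR adjusted p = 0.0048) and the 24 h difference did not (log2 0.68, edgeR adjusted p = 0.105).

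**Figure D3:**
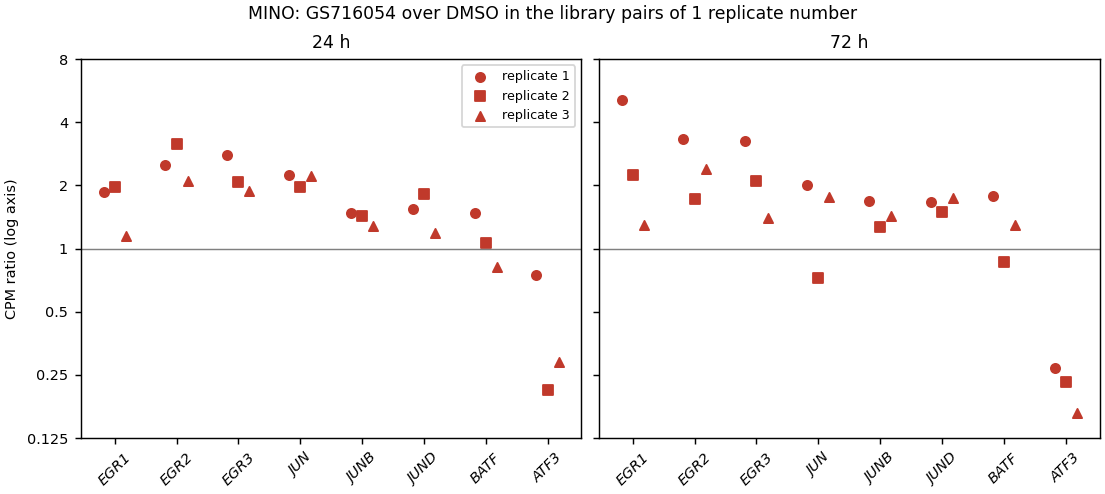
Ratio of CPM under GS716054 to CPM under DMSO in MINO for the 3 library pairs of the same replicate number, at 24 h and 72 h, on a log axis with a line at 1. EGR2 ratios are 1.73 to 3.31 and ATF3 ratios 0.165 to 0.751 over both times, JUN replicate 2 at 72 h is at 0.726, and BATF scatters around 1.

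JUND, the JUN protein least dependent on acute signals, was the most abundant JUN gene in MINO and rose at 72 h. At 24 h it was at 112, 121 and 161 CPM under DMSO and at 174, 221 and 191 CPM under GS716054. At 72 h it was at 115, 168 and 144 CPM under DMSO and at 192, 252 and 250.2 CPM under GS716054. Treated libraries lay above all DMSO libraries at both times. The difference was log2 0.54 (SE 0.176, edgeR adjusted p = 0.13; with pairs 0.55, adjusted p = 0.00838) at 24 h and 0.69 (SE 0.176, edgeR adjusted p = 0.0395) at 72 h. Among the DMSO libraries, leaving out replicate 1 (0.148) or 3 (0.106) ended the 72 h call, as did replicate 2 (0.0667) or 3 (0.107) of the treated ones. With only the 6 libraries compared, JUND did not pass at 72 h (edgeR adjusted p = 0.163) and passed at 24 h (0.0165). With pairs JUND passed at 72 h as well (log2 0.69, SE 0.122, edgeR adjusted p = 0.00162).

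JUNB, which can restrain JUN at shared sites, was measured next. At 24 h it was at 74, 93.1 and 86 CPM under DMSO and at 109.7, 133 and 111 CPM under GS716054 in MINO. Its 72 h levels were 60.8, 92.6 and 66 CPM and at 103, 117 and 94.1 CPM. The groups did not overlap, but the differences of log2 0.45 (SE 0.164, edgeR adjusted p = 0.167) and 0.50 (SE 0.164, edgeR adjusted p = 0.0923) did not pass, and passed with pairs (0.45, adjusted p = 0.0133 and 0.52, adjusted p = 0.00531). At 24 h JUNB also passed without pairs when only the 6 libraries compared were fitted (0.0213). Without DMSO replicate 2 at 72 h, JUNB passed in the model without pairs (log2 0.67, edgeR adjusted p = 0.0146). Without GS716054 replicate 2 instead it did not (log2 0.42, edgeR adjusted p = 0.159).

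JUN differed in MINO at 24 h with pairs and not in the main fit. It was then at 13.2, 27 and 19.5 CPM under DMSO and at 29.5, 52.9 and 43.3 CPM under GS716054, a difference of log2 1.04 (SE 0.365, edgeR adjusted p = 0.156; with pairs 1.06, adjusted p = 0.00503). Without pairs JUN also passed at 24 h when no low-count filter was used (0.000143) or when only the 6 libraries compared were fitted (0.0134). At 72 h it was at 17.7, 47.7 and 17.5 CPM under DMSO and at 35.4, 34.7 and 30.9 CPM under GS716054. The groups overlapped at 72 h through DMSO replicate 2 (log2 0.29, SE 0.361, edgeR adjusted p = 0.691), and without that library the difference was log2 0.88 (adjusted p = 0.0635). Without GS716054 replicate 2 instead it was log2 0.27 (edgeR adjusted p = 0.732). Whether the effect on JUN changed between the times was tested directly and did not pass (log2 -0.75, SE 0.511, edgeR adjusted p = 0.969).

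FOS, the partner that most strongly activates with JUN, was near the floor in MINO. It was at 1.18, 0.428 and 0.352 CPM under DMSO and 1.96, 1.3 and 0.361 CPM under GS716054 at 24 h. At 72 h it was at 0.0768, 6.42 and 0.392 CPM under DMSO and 0.942, 4.26 and 0.568 CPM under GS716054. The spread at 72 h came from the replicate 2 pair, which held 60 and 47 reads against 1 to 8 reads in the other 4 libraries. FOS differed by log2 -0.15 (SE 1.09, edgeR adjusted p = 0.954) at 72 h with all libraries. Leaving out DMSO replicate 2 gave 2.89 (edgeR adjusted p = 0.0955), and leaving out GS716054 replicate 2 instead gave -1.51 (0.523). The sign also varied with the other libraries left out. It was negative without DMSO replicate 1 (log2 -0.75) or 3 (-0.70) and positive without GS716054 replicate 1 (0.14) or 3 (0.27). With pairs the difference was 0.29 (SE 0.576, edgeR adjusted p = 0.76). None of these fits passed, and no fit left out both libraries of the replicate 2 pair. FOSB was at 0 to 1.5 CPM in the 12 MINO libraries, also highest in DMSO replicate 2 at 72 h. BATF, which lacks an activation domain of its own, was at 18.9, 28.8 and 26.4 CPM under DMSO and 27.9, 30.5 and 21.6 CPM under GS716054 at 24 h, and did not pass at either time (log2 0.08 and 0.31; edgeR adjusted p = 0.887 and 0.435).

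**Figure D4:**
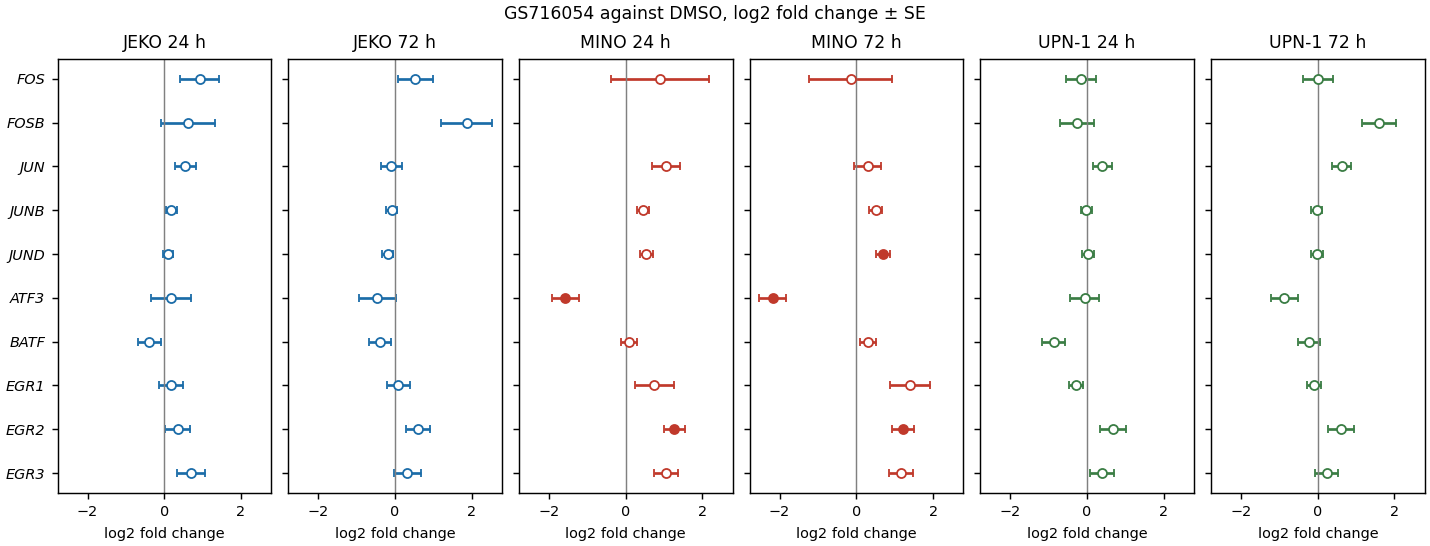
Log2 fold change of GS716054 against DMSO for each gene in each line and time, with the standard error, from the edgeR model without replicate pairs; filled points have an adjusted p under 0.05 and FOSB was not tested in MINO. The 5 filled points are ATF3 and EGR2 in MINO at both times and JUND in MINO at 72 h.

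In JEKO, 0 of 10 members were called at 24 h, where 0.018% of 16690 genes were called, and 0 of 10 at 72 h, where 0.3% were called. At an unadjusted p under 0.05 edgeR gave 0 and 1 members, and DESeq2 called 0 at both times. Here and below, counts at an unadjusted p are given without the share of all genes at that limit, so they have no background. With pairs at 72 h, 0 of 10 members and 3.34% of all genes were called. The largest difference was FOSB at 72 h, at 0.433, 0.0789 and 0.517 CPM under DMSO and 1.56, 1.23 and 1.1 CPM under GS716054 (log2 1.87, SE 0.661, edgeR adjusted p = 0.374). These are 1 to 21 reads per library, so the groups were separate but the depth was low. EGR2, the gene that rose in MINO, was at 8.66, 8.37 and 6.94 CPM under DMSO and 15.5, 12 and 9.14 CPM under GS716054 at 72 h (log2 0.61, SE 0.314, edgeR adjusted p = 0.652).

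JUNB and JUND in JEKO were measured precisely and moved little. JUND at 72 h was at 65.1, 57.9 and 54.7 CPM under DMSO and 50.6, 51.2 and 53.5 CPM under GS716054 (log2 -0.19, SE 0.137). JUNB differed by log2 -0.09 (SE 0.143) at that time. ATF3 at 72 h ranged from 8.92 to 37.5 CPM under DMSO and from 5.63 to 26.2 CPM under GS716054, with replicate 2 the lowest in both groups (log2 -0.46, SE 0.474, edgeR adjusted p = 0.909; with pairs -0.48, SE 0.158, adjusted p = 0.136).

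In UPN-1, 0 of 10 members were called at 24 h, where 0.0262% of 15248 genes were called, and 0 of 10 at 72 h, where 0.334% were called. Unadjusted p values under 0.05 from edgeR numbered 1 and 3, and DESeq2 called 0 members at both times. With pairs at 72 h, 3 of 10 members were called, 2 higher and 1 lower, against 7.47% of all genes. FOSB was at 0.317, 0.363 and 0.656 CPM under DMSO and 1.41, 1.1 and 1.56 CPM under GS716054 at 72 h (log2 1.62, edgeR adjusted p = 0.0445 with pairs; 1.60, adjusted p = 0.216 without). JUN was at 8.15, 8.26 and 5.57 CPM under DMSO and 10.4, 14.7 and 8.33 CPM under GS716054 (log2 0.61, edgeR adjusted p = 0.0173 with pairs; 0.62, adjusted p = 0.509 without). ATF3 was at 15, 6.63 and 5.49 CPM under DMSO and 7.13, 4.86 and 2.72 CPM under GS716054 (log2 -0.84, edgeR adjusted p = 0.00861 with pairs; -0.87, adjusted p = 0.578 without).

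For ATF3 the UPN-1 groups overlapped, although the treated library of each pair was the lower. For JUN and FOSB the groups did not overlap, with a gap of 8.26 to 8.33 CPM for JUN and with 4 to 20 FOSB reads per library. BATF had the lowest unadjusted p of the members in UPN-1 at 24 h, at 5.21, 7.06 and 5.27 CPM under DMSO and 3.31, 3.7 and 2.67 CPM under GS716054 (log2 -0.87, SE 0.298, edgeR unadjusted p = 0.0106, adjusted p = 1). JUND and JUNB differed by log2 -0.02 (SE 0.152) and -0.03 (SE 0.142) at 72 h. EGR1 was at 36.2, 31.5 and 31.6 CPM under DMSO and 28.2, 26.9 and 26.5 CPM under GS716054 at 24 h, a separation that did not pass (log2 -0.29, SE 0.178, edgeR adjusted p = 1).

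Whether the effect differed among the lines was tested directly over all 36 libraries. At 24 h, 0 of 10 members passed, against 0.106% of 17980 genes, and at 72 h 0 of 10 passed, against 1.01%. At an unadjusted p under 0.05 edgeR gave 1 member at 24 h and 5 at 72 h, and DESeq2 was not run on this contrast. The shares of all genes above are for adjusted p, so these unadjusted counts have no background. JUND came nearest, with an adjusted p of 0.0766 at 72 h, and passed without MINO DMSO replicate 2 (0.0319), MINO GS716054 replicate 1 (0.0448) or UPN-1 DMSO replicate 3 (0.0251). With pairs at 72 h, 4 of 10 members differed among the lines, against 9.78% of all genes: JUND (edgeR adjusted p = 0.000717), ATF3 (0.00465), EGR1 (0.00813) and JUNB (0.0138). EGR2 and EGR3 did not pass this test with pairs (0.218 and 0.111), so a difference of their effect among the lines was not shown.

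The effect did not change detectably from 24 h to 72 h. In the direct test 0 members passed in any line, where 0% of all genes were called in JEKO and in UPN-1 and 0.0133% in MINO. At an unadjusted p under 0.05 edgeR gave 0 members for JEKO and MINO and 1 for UPN-1, FOSB, with a change of log2 1.87 (SE 0.63). DESeq2 was not run on this contrast.

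Culture time moved ATF3 in JEKO. In DMSO cells ATF3 was at 6.34, 5.55 and 4.07 CPM at 24 h and at 37.5, 8.92 and 23 CPM at 72 h, so all later libraries were higher but by very unequal amounts. The increase was log2 2.13 (SE 0.511, edgeR adjusted p = 0.00778) and held without each library in turn (highest adjusted p 0.0432). It was the 1 of 10 members called, against 31.7% of all genes in JEKO. In MINO 0 of 9 members were called, against 0.0932% of all genes, and in UPN-1 0 of 10, against 1.47%. Unadjusted p values under 0.05 from edgeR numbered 2 in MINO and 4 in UPN-1, and DESeq2 was not run on this contrast. Without UPN-1 DMSO replicate 3 at 72 h, JUND (edgeR adjusted p = 0.0105), EGR1 (0.0178) and ATF3 (0.0391) passed in UPN-1. These calls cannot be set against the 1.47%, because the number of all genes called there moved strongly when single libraries were left out.

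The ATF4 list, which holds ATF4 and 9 of its stress partners and targets, moved alongside ATF3. In JEKO DMSO cells all 9 tested genes of the list rose from 24 h to 72 h, with a median log2 change of 2.29 beside 0.05 over all genes. In that comparison 31.7% of all genes were called. CHAC1, a glutathione-degrading enzyme, rose by 2.72 (SE 0.368, edgeR adjusted p = 0.000692) and DDIT3, a pro-apoptotic stress factor, by 2.46 (SE 0.366, edgeR adjusted p = 0.000885). ATF4 itself was at 185, 198 and 155 CPM at 24 h and at 603, 272 and 491 CPM at 72 h, with replicate 2 again the lowest. In the same comparison 10 of 11 heat shock genes fell, with a median of -1.44. HSPA8, a constitutive chaperone, fell by 2.57 (SE 0.317, edgeR adjusted p = 0.000563).

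In MINO the ATF4 list moved the other way under GS716054. At 24 h 1 of 9 tested genes was called, beside 2.39% of all genes. It was ATF4, lower by log2 -0.74 (SE 0.167, edgeR adjusted p = 0.0383), although leaving out any single library ended that call (0.0746 to 0.185). At 72 h 4 of 9 were called, all lower, beside 5.56% of all genes, with a list median of -0.96. ATF4 was at 382, 561 and 436 CPM under DMSO and at 228, 246 and 176 CPM under GS716054 (log2 -1.10, SE 0.168, edgeR adjusted p = 0.00327). SESN2, a stress-induced inhibitor of growth signalling, was lower by -0.84 (SE 0.15, edgeR adjusted p = 0.00741). CEBPB (-0.71) and CHAC1 (-1.66) were the other two, named after their values were seen. The CEBPB call was lost without DMSO replicate 3 (0.0843), and that of CHAC1 without DMSO replicate 1 (0.0637), DMSO replicate 3 (0.0536) or the third treated replicate (0.0635). Of the 11 heat shock genes edgeR called 0 in MINO at either time, with 3 and 4 at an unadjusted p under 0.05, and DESeq2 called 0 and 1 (HSPD1, lower). With pairs, 4 of 9 genes of the ATF4 list were lower in JEKO at 72 h (DDIT3, CEBPB, CEBPG and TRIB3) and 2 in UPN-1 at 72 h (ATF4 and CHAC1), named after their values were seen. Over all genes the paired model called 3.34% in JEKO and 7.47% in UPN-1 at that time.

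Over the 36 libraries, after the mean of each line was subtracted, the genes with log2 CPM most like ATF3 among 11664 candidates were SLC43A1 (Pearson r = 0.91), an amino acid transporter, ATF4 (0.90) and PHGDH (0.89), an enzyme of serine synthesis. These correlations share libraries, groups and depth and are given as a description. The 6 treated MINO libraries had the lowest ATF3 levels of all 36, at 0.834 to 1.65 CPM. The highest was JEKO DMSO replicate 1 at 72 h, whereas replicate 2 of that group, at 8.92 CPM, was below replicates 1 and 3 of JEKO under GS716054 at the same time.

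**Figure D5:**
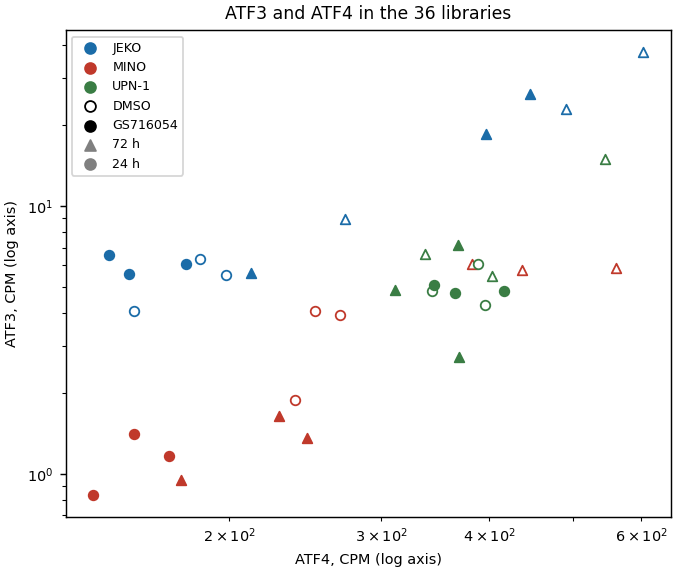
ATF3 against ATF4 in each of the 36 libraries, both in CPM on log axes; colours are lines, open points DMSO, filled points GS716054, circles 24 h and triangles 72 h. Treated MINO libraries lie lowest on the ATF3 axis, at 0.834 to 1.65 CPM, with ATF4 at 139 to 246 CPM, and JEKO DMSO replicate 1 at 72 h is at the top right with ATF3 at 37.5 CPM.

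For EGR2 the most alike gene was EGR3 (r = 0.76), followed by PARP9 (0.74) and ABAT (0.72). EGR3 was most like EGR2 (0.76), ABAT (0.71) and NR4A3 (0.70), an immediate early nuclear receptor. EGR1 was most like WDR48 (0.69), HIVEP3 (0.68) and the immediate early gene IER2 (0.67). Between EGR1 and the other two, r was 0.51 (EGR2) and 0.56 (EGR3).

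JUNB was most like VASP (0.81), NECAP2 (0.78) and NAB2 (0.77), the last a corepressor that binds EGR proteins. JUND was most like PIGR (0.84), GPSM3 (0.82) and BTG2 (0.82). JUN was most like DHRS7 (0.72), RAB11FIP1 (0.71) and CPEB4 (0.71), and BATF like POLR2G (0.70), SCNM1 (0.69) and CDK2AP2 (0.67). FOS was most like MAGED2 (0.78), BACH1 (0.73) and JAZF1 (0.73). FOSB, with the fewest reads, reached 0.57 at most, with LINC01480, then YIPF4 (0.56) and USO1 (0.55). Among the members themselves, ATF3 ran from -0.44 with JUNB to 0.05 with FOS.

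Feedback and target genes of the same signalling were followed as lists. Of 10 tested feedback inhibitors of MAP kinase signalling, 1 was called in MINO at 24 h and 2 at 72 h, all higher, with medians of 0.13 and 0.12. Over all genes 2.39% and 5.56% were called. DUSP5, a nuclear phosphatase of ERK, was at 17.1, 21.9 and 15.4 CPM under DMSO and at 39.5, 77 and 45.5 CPM under GS716054 at 24 h. By edgeR its rise at 24 h was log2 1.54 (SE 0.244, adjusted p = 0.00967), and at 72 h it was 1.64 (SE 0.243, adjusted p = 0.00265). Leaving out DMSO replicate 1 (0.0621) or 3 (0.0592) ended the 24 h call. DUSP6, the cytoplasmic counterpart, rose by 1.42 (SE 0.253, edgeR adjusted p = 0.00736) at 72 h.

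Of 31 tested other immediate early genes in MINO, 3 were called higher and 1 lower at 24 h, and 5 higher and 1 lower at 72 h. The shares over all genes were 2.39% and 5.56%, and the list medians were 0.53 and 0.23. BTG2, an antiproliferative factor, was at 129, 121 and 127 CPM under DMSO and at 349.8, 413 and 338 CPM under GS716054 at 24 h, a rise of log2 1.52 (SE 0.205, edgeR adjusted p = 0.00572). MCL1, a survival factor, rose by 0.72 (SE 0.132, edgeR adjusted p = 0.0179) at 24 h, a call that held only without GS716054 replicate 3, and by 0.81 (SE 0.132, edgeR adjusted p = 0.00421) at 72 h. MYC, the growth regulator, went the opposite way, from 509, 545 and 468 CPM to 179, 171 and 179.7 CPM at 24 h (log2 -1.55, SE 0.138, edgeR adjusted p = 0.000724) and by -1.69 at 72 h (SE 0.138, edgeR adjusted p = 7.37e-05). The other genes called higher were CD83 at both times and ZFP36L1 and ID3 at 72 h, named after their values were seen. Leaving out 1 library ended the CD83 call in 5 of 6 cases at 24 h (0.0731 to 0.153; it held without GS716054 replicate 1) and in 4 of 6 at 72 h (it held without replicate 2 of either group). ZFP36L1 was lost without DMSO replicate 1 (0.0709) or 3 (0.0799), and ID3 without DMSO replicate 1 (0.0592) or GS716054 replicate 1 (0.0503) or 3 (0.0748). With pairs the counts were 16 higher and 1 lower at 24 h, and 10 higher and 3 lower at 72 h, beside 15.8% and 20.2% of all genes.

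In JEKO and UPN-1, 0 of 32 and 0 of 29 tested genes of that list were called at either time by edgeR or DESeq2. Over all genes edgeR called 0.018% and 0.3% in JEKO and 0.0262% and 0.334% in UPN-1, at 24 h and 72 h. At an unadjusted p under 0.05 edgeR gave 3 and 6 genes in JEKO and 1 and 2 in UPN-1. At 72 h in UPN-1 the count with pairs was 5 higher and 1 lower, beside 7.47% of all genes. In JEKO DMSO cells 7 of 32 rose between 24 h and 72 h, beside 31.7% of all genes called in either direction. They included ZFP36L1 (log2 1.07, SE 0.154, edgeR adjusted p = 0.00081), an RNA decay factor, and the nuclear receptor NR4A1 (1.04, SE 0.179, edgeR adjusted p = 0.00164).

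The upstream kinases and factors, 18 genes that include the ERK, JNK and p38 kinases and the serum response factors, had 0 genes called by edgeR under GS716054 in every line and time, with 0 to 4 at an unadjusted p under 0.05. DESeq2 called 3 of them higher in MINO at 72 h (MAPK8, RPS6KA3 and ELK4, named after their values were seen) and 0 elsewhere. In MINO at 72 h DESeq2 also called more genes over all than edgeR without pairs. With pairs, 2 of 18 were called in MINO at 24 h and 4 of 18 at 72 h, all higher, beside 15.8% and 20.2% of all genes. The EGR partners and relatives, 4 tested, had 0 genes called by edgeR or DESeq2, and 0 at an unadjusted p under 0.05. With pairs, NAB2, induced by EGR proteins and restraining them, passed in MINO at 24 h (log2 0.67) and 72 h (0.63) and in UPN-1 at 72 h (0.45). NAB2 was at 66.2, 55.8 and 88.2 CPM under DMSO and at 111, 99.6 and 128 CPM under GS716054 in MINO at 24 h.

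Among other AP-1 and related leucine zipper subunits, 1 of 12 tested genes was called in MINO at 24 h, beside 2.39% of all genes. It was MAFK, a small MAF protein, lower by -0.63 (SE 0.122, edgeR adjusted p = 0.0222), and leaving out any single library ended the call (0.0623 to 0.128). In UPN-1 at 72 h CREB5 rose by 0.89 (SE 0.174, edgeR adjusted p = 0.0404), from 7.36, 8.99 and 8.44 CPM to 15.9, 12.6 and 16.8 CPM. That call held only when DMSO replicate 2 was left out (otherwise 0.0586 to 0.204). Among the 4 BATF partners in lymphocytes, PRDM1, the plasma cell regulator that represses mature B cell genes, rose in JEKO at 72 h. It was at 3.32, 2.84 and 4.73 CPM under DMSO and at 10.7, 7.72 and 9.21 CPM under GS716054 (log2 1.34, SE 0.228, edgeR adjusted p = 0.0225), a call lost without replicate 1 of DMSO (0.0706), replicate 2 of DMSO (0.07), replicate 1 of GS716054 (0.0738) or replicate 3 of GS716054 (0.0704).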

How the data were processed

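For each library the authors deposited read counts as whole numbers, with 58302 Ensembl IDs and a few summary lines. Per the submitters' processing notes HISAT2 2.2.1, HTSeq 0.13.5 and GRCh38 were used, with roles, strand setting and annotation release not given in the sources used here. Per the labels, a Qiagen mRNA kit was used on total RNA. Summary lines (43.25% to 45.93% of reads in no feature) were left out.

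Counts were fitted in R 4.3.3 with edgeR 4.0.16: quasi-likelihood, TMM, 1 coefficient per group, 12 libraries per line, or all 36 for contrasts between lines. filterByExpr kept genes at a minimum count of 10 and a total of 15. A call is an edgeR p under 0.05 after Benjamini-Hochberg adjustment across the whole table tested, as for every edgeR adjusted p in the text. DESeq2 calls use the adjusted p of DESeq2 itself at the same limit, with its default filter on low mean counts. At 24 h it gave no adjusted p for FOS and FOSB in JEKO or for FOSB in UPN-1. The code was tested on simulated data. CPM use TMM library sizes, and correlations use log2 CPM with a prior count of 2. No library pair held identical counts. Figures were drawn with matplotlib 3.10.9.

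Same-numbered DMSO and GS716054 libraries correlated in their deviations from group means at r of 0.277 to 0.562 in JEKO at 72 h, 0.102 to 0.207 and 0.221 to 0.483 in MINO at 24 h and 72 h, and 0.36 to 0.478 in UPN-1 at 72 h, so paired values are given there. Libraries of different number gave r of -0.483 to 0.0562, -0.125 to 0.0231, -0.401 to 0.254 and -0.377 to -0.126 in that order. In MINO at 72 h the lowest same-numbered r (0.221) was thus below the highest of different number (0.254). At 24 h JEKO (lowest 0.0463) and UPN-1 (lowest 0.0688) missed the limit of 0.1. Across times r was -0.132 to 0.243.

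Alternatives were DESeq2 1.42.0 and its size factors, no filter, a replicate block, the 6 libraries compared and leaving out each library. The members, lists and motifs were chosen with earlier results of these data known. Named are all members, up to 2 called genes per list and direction with the lowest adjusted p (mean log2 CPM at least 0), and the 3 genes most like each member (candidates average log2 CPM 1 or more per line). The list rule was extended to culture time after values were seen.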

Additional observations from a re-analysis of the deposited data

Results flagged for a closer look

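For 4 genes the effect of GS716054 at 72 h differed among JEKO, MINO and UPN-1 in a direct test of that difference, once same-numbered libraries were treated as pairs within each time. The edgeR adjusted p was 0.000717 for JUND, 0.00465 for ATF3, 0.00813 for EGR1 and 0.0138 for JUNB. JUND, JUNB and EGR1 were higher in MINO (log2 0.69, 0.52 and 1.30) and at 0.00, -0.02 and -0.09 in UPN-1 and -0.19, -0.08 and 0.06 in JEKO. ATF3 was at -2.19 in MINO, -0.84 in UPN-1 and -0.48 in JEKO. In the main fit, without pairs, none of the 4 passed (0.0766 for JUND, 0.433 for ATF3, 0.318 for EGR1 and 0.273 for JUNB). Without the low-count filter JUND (0.0422), ATF3 (0.0173) and EGR1 (3.55e-05) passed without pairs, and JUND also passed on leaving out any of 3 single libraries. The paired model was added after the data were seen.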

How the results depend on the processing

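Of 117 values of members, 20 past the threshold, none reversed as a call under 1222 alternative values: 1100 kept side and direction, 26 lost the threshold, 42 gained it and 54 changed sign with neither value past it. Counts of genes called moved, and the cause was not tested. In the order JEKO 24 h and 72 h, MINO 24 h and 72 h, UPN-1 24 h and 72 h, GS716054 against DMSO gave 3, 50, 359, 835, 4 and 51 genes. These were 44, 355, 1053, 1492, 36 and 231 without the low-count filter, 8, 113, 994, 1536, 12 and 223 with a replicate block across times, 15, 557, 2373, 3029, 228 and 1139 with the replicate block within each time (added after seeing the data), 31, 227, 936, 1557, 21 and 164 by DESeq2, and 7, 2, 2557, 101, 30 and 6 with only the 6 libraries compared.

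Members called in MINO at 24 h were 2, and 5 without the filter, 5 and 6 with the replicate block across and within times, and 6 with the 6 libraries alone. At 72 h they were 3, and 5, 6, 6 and 1 in that order. In UPN-1 at 72 h they were 0, and 3 with the block within times. The counts of all genes called, given above, rose and fell in the same settings. In MINO the main fit and the block within times called 2.39% and 15.8% of all genes at 24 h, and 5.56% and 20.2% at 72 h. For UPN-1 at 72 h these shares were 0.334% and 7.47%. Without the filter 27323 genes were tested in MINO, against 15028 with it. Shares for the remaining settings are not given.

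For the change of effect, JEKO gave 0 genes and 20 without the filter. MINO gave 2, and 86 without the filter and 6 and 102 with the replicate blocks, and UPN-1 gave 0, and 5, 1 and 7. For DMSO over time, MINO gave 14 genes, and 1727 without the filter and 1819 with the replicate block, and UPN-1 gave 224, and 1845 and 2784. Members called over time in JEKO were 1, and 3 (FOS, ATF3 and EGR1) without the filter and 2 (FOS and ATF3) with the replicate block. The main fit called 31.7% of all genes there, and the shares of the other settings are not given, so that rise has no background. In UPN-1 members called were 0, and 2 (ATF3 and EGR1) and 1 (EGR1) in the same order. Genes whose effect differed among lines numbered 19 at 24 h, and 266 without the filter and 247 and 1032 with the replicate blocks, and 182 at 72 h, and 580, 528 and 1758. Members among them were 0 at 24 h, and 1 (ATF3) without the filter and 2 (JUND and ATF3) with the block within times. At 72 h they were 0, and 3 without the filter and 1 and 4 with the blocks. The replicate block within times changed no member call in JEKO or in UPN-1 at 24 h.

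Leaving out each library, GS716054 against DMSO gave 0 to 1 and 15 to 52 genes in JEKO, 27 to 91 and 358 to 1518 in MINO, and 2 to 5 and 5 to 139 in UPN-1, at 24 h and 72 h. Members called in MINO ranged from 0 to 1 and from 1 to 5. The change of effect in MINO gave 0 to 4 genes. DMSO over time gave 2717 to 4914 in JEKO, 4 to 235 in MINO and 1 to 3084 in UPN-1, with 1 to 2 members in JEKO and 0 to 3 in UPN-1. UPN-1 against MINO gave 4 to 7 members. The main fit called 44.4% of all genes there, and the shares on leaving out a library are not given, so that range has no background. Genes differing among lines ranged from 9 to 31 and from 70 to 297, with 0 to 1 members at 72 h. The highest counts for MINO at 72 h came without DMSO replicate 2. FOS and FOSB held 0 to 60 reads per library, a low depth for any call.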
